A study of Mus musculus with 17 samples.

Results

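Scl, Lmo2, Ldb1, the Runx factors and the Ets factors Erg and Fli1 are transcription regulators that occupy many of the same enhancers in blood stem and progenitor cells. Scl, encoded by Tal1, and its relative Lyl1 bind DNA as dimers with E proteins, Lmo2 and Ldb1 bridge these dimers to Gata factors, Runx proteins bind DNA together with their partner Cbfb, and Erg and Fli1 bind through an Ets domain. In this tissue Scl, Lmo2 and Runx1 are known for their need in the origin of blood stem cells, and Scl and Ldb1 for their later roles in the erythroid line. The mRNA of these 10 genes was read across 6 sorted populations of mouse bone marrow. The members were taken as every non-control probe of the array whose gene name was Tal1, Lyl1, Lmo2, Ldb1, Runx1, Runx2, Runx3, Cbfb, Erg or Fli1. This gave 19 probes on 28 spots, of 41174 probes and 28090 gene names in all.

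The populations were sorted from female C57Bl/6 mice that were 6 to 8 weeks old by the study's methods, with 10 to 20 mice pooled for a replicate. All cells were depleted of lineage antigens (B220, CD3, GR-1 and Ter119) and enriched for c-kit. The HSC subsets were LT-HSC (Sca-1+ CD34- FLT3-), ST-HSC (Sca-1+ CD34+ FLT3-) and MPP (Sca-1+ CD34+ FLT3+), and the myeloid populations were CMP (Sca-1- with middle levels of CD34 and FcRγ), GMP (Sca-1- CD34+ FcRγ+) and MEP (Sca-1- CD34- FcRγ-), taken in a separate sort. The labels name no treatment and no engineered allele, and none of the 10 members was used in a gate. Each population was hybridized to 3 arrays except LT-HSC, which had 2, for 17 in all. The labels number the arrays 2 and 3 or 1 and 2 and leave 1 array per population without a number, and for LT-HSC the numbered pair was combined on a single array. The p-values below measure the spread between arrays of the same population. These arrays differ in their pool of mice and, except in LT-HSC, also in scanning run.

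Values are log2 intensities, quantile normalized over the 17 arrays, and a level is compared only within a probe. Between 41.4% and 70.1% of spots on an array were well above background by the scanner software. The unnumbered LT-HSC array was the dimmest, its upper quartile lying at an intensity of 53.1 where the other arrays had 243 or more. Between 14 and 19 of the 19 member probes were well above background on an array, 14 on MEP replicate 1 and 16 on the dim LT-HSC array. Scanning took place in 3 runs, and these follow the sorts: all 6 arrays of run 1 were myeloid, all 6 of run 3 were HSC subsets, and only run 2 mixed them, with the unnumbered array of each population but LT-HSC. The log2 summed intensity of Hlf, Procr and Slamf1 ran from 13.12 to 13.38 in LT-HSC, 12.69 to 13.01 in ST-HSC, 13.09 to 13.57 in MPP, 9.49 to 9.93 in CMP, 8.34 to 8.70 in GMP and 6.76 to 7.42 in MEP. That of Mpo, Ela2, Ctsg and Prtn3 ran from 16.03 to 17.93 in LT-HSC, 18.30 to 19.01 in ST-HSC, 16.09 to 17.50 in MPP, 17.93 to 19.05 in CMP, 19.19 to 19.79 in GMP and 13.87 to 16.71 in MEP, and that of Gata1, Klf1, Epor and Gata2 from 13.06 to 13.68 in LT-HSC, 12.82 to 13.15 in ST-HSC, 10.93 to 11.09 in MPP, 12.91 to 13.25 in CMP, 11.73 to 11.77 in GMP and 14.83 to 14.94 in MEP. Slamf1 went against its list, with a mean of 1.97 in MPP, where no array had it well above background, and of 5.72 in CMP, where all 3 did. Gata2 went against its own, with its lowest mean in MEP, 10.54 against 11.49 in GMP. In bulk RNA, fewer cells of a type and less RNA per cell cannot be told apart.

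Most members differed between GMP and MEP, and they did so in both directions. Read by the brightest probe of each gene, Erg, Fli1, Runx2, Cbfb, Lyl1 and Runx1 were higher in GMP than in MEP. GMP minus MEP ran from 1.29 (Runx1) to 2.90 (Fli1) on the log2 scale, and for Tal1 and Ldb1, both lower in GMP, it was -2.80 and -1.44. The second Runx1 probe, at 0.24, and the dimmest Runx2 probe, at 0.10, did not pass. By the brightest probes, Erg, Runx2, Fli1 and Cbfb were also higher in the HSC subsets than in the 3 myeloid populations as a set. Between single populations, by the same probes, no HSC subset differed from CMP or GMP in Cbfb, ST-HSC over CMP was the only such pair that passed for Fli1, and Runx2 passed against GMP but not against CMP. Across the 6 populations 16 of the 19 probes differed (F-test of limma, adjusted p under 0.05), as did 40.6% of all probes. The count was 8 of 19 at the study's threshold of p under 1e-06, which 4.9% of all probes passed, and those 8 probes belong to Tal1, Cbfb, Runx2, Erg and Fli1. With the replicate block 3 passed. In GMP against MEP, 11 probes were higher, against 9.56% of all probes, and 3 were lower, against 7.81%. The median difference was 1.37 over the 19 probes and -0.07 over all probes. In HSC subsets against myeloid populations, 11 probes were higher, against 18.2% of all probes, and 5 were lower, against 23.1%, with a median of 0.45 over the 19 probes and -0.02 over all. The genes were chosen with earlier results of these arrays known, and the study lists Erg and Runx2 as predicted microRNA targets on these samples. These counts are therefore a description of the members. The listings are for microRNAs high in the HSC subsets and for those high in GMP, with an inverse pattern required. By their brightest probes both genes were higher here in the HSC subsets, the same direction as the first of these microRNA sets. The comparison of HSC subsets with myeloid populations moved with the scanning run. With run as a term in the fit, 6 of the 19 probes were called higher, against 6.86% of all probes, and none lower, against 7.64%. Markers of lymphoid cells also differed between the populations. The log2 summed intensity of Cd79a, Cd79b and Igh-6 ran from 15.26 to 16.13 in LT-HSC, 12.64 to 13.09 in ST-HSC, 15.19 to 15.34 in MPP, 14.78 to 14.93 in CMP, 13.49 to 13.82 in GMP and 10.40 to 11.50 in MEP. That of Cd3e, Cd3d, Cd3g and Cd5 ran from 9.14 to 9.23 in LT-HSC, 7.70 to 8.37 in ST-HSC, 8.89 to 9.28 in MPP, 7.80 to 8.04 in CMP, 6.78 to 7.14 in GMP and 6.71 to 7.80 in MEP. The summed B cell list was lowest in MEP, as 5 of the members were, and so were Cd79b and Igh-6. Cd79a had its lowest mean in CMP, 3.38 against 4.26 in MEP, with no array of either well above background. The part of the B cell list in the values of the members was not tested.

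**Figure D1:**
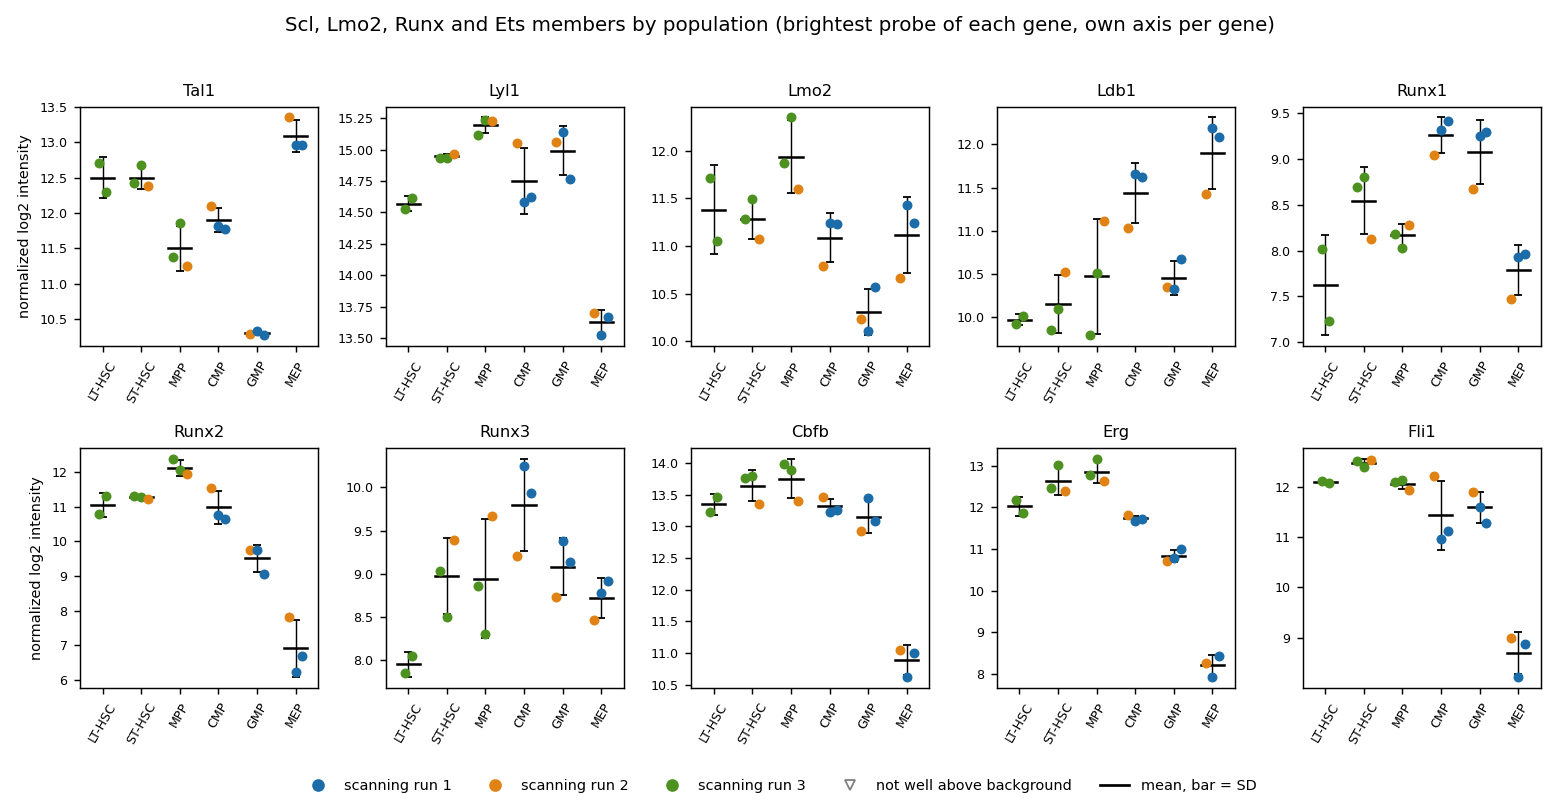
Normalized log2 intensity of the brightest probe of each of the 10 genes on the 17 arrays, by population, with points colored by scanning run, a black line at the mean and a bar of 1 SD. Erg, Fli1, Cbfb, Runx2 and Lyl1 stood lowest on the 3 MEP arrays, and Tal1 and Ldb1 had their highest mean there. Each panel has its own axis, which does not start at 0.

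Tal1 encodes Scl, a basic helix-loop-helix factor of the stem cell, erythroid and megakaryocyte programs, and was read by 1 probe (chromosome 4 of mm9, 114744223 to 114744283, plus strand). With the unnumbered array of each population last here and below, its log2 intensity was 12.70 and 12.30 in LT-HSC, 12.42, 12.69 and 12.39 in ST-HSC, 11.38, 11.86 and 11.25 in MPP, 11.82, 11.78 and 12.10 in CMP, 10.33, 10.27 and 10.29 in GMP, and 12.96, 12.97 and 13.36 in MEP. The MEP arrays were the highest of all, the GMP arrays the lowest, and neither overlapped with any other population. The GMP minus MEP difference was -2.80 ± 0.19 (SE) on the log2 scale, with an adjusted p of 3.35e-07, so Tal1 was 6.95-fold higher in MEP. Within the HSC subsets Tal1 was lower in MPP, with LT-HSC minus MPP at 1.0 ± 0.21 (SE, adjusted p 0.0138) and ST-HSC minus MPP at 1.0 ± 0.19 (SE, adjusted p 0.0127), while LT-HSC and ST-HSC differed by 0.00 ± 0.21 (SE, adjusted p 0.998). The HSC subsets minus the myeloid populations gave 0.40 ± 0.11 (SE) on the log2 scale, with an adjusted p of 0.0121. That call was lost with run in the fit (0.04 ± 0.19 (SE), adjusted p 0.93), and within run 2 the difference was -0.09. It was also lost with the 75th percentile in place of quantiles (adjusted p 0.192), with slide as a random block (0.146), with the replicate block (0.187) and without LT-HSC (0.129).

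Lyl1, the closest relative of Tal1, binds the same kind of DNA element and can replace it in adult stem cells. Its probe (chromosome 8 of mm9, 87228531 to 87228590, plus strand) read 14.53 and 14.61 in LT-HSC, 14.93, 14.93 and 14.97 in ST-HSC, 15.12, 15.23 and 15.23 in MPP, 14.58, 14.62 and 15.06 in CMP, 15.14, 14.77 and 15.06 in GMP, and 13.52, 13.66 and 13.70 in MEP. The 3 MEP arrays were below every other array, and the means of the other 5 populations lay between 14.57 and 15.19. GMP minus MEP was 1.37 ± 0.15 (SE) on the log2 scale, with an adjusted p of 1.78e-05, 2.58-fold. This was the opposite direction to Tal1 on the same arrays. Against the myeloid populations the HSC subsets stood at 0.45 ± 0.09 (SE) on the log2 scale, with an adjusted p of 0.00134, and 0.33 ± 0.14 (SE) with run in the fit, where the adjusted p was 0.159. With the 75th percentile the adjusted p was 0.192.

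The 250 bases before the first Tal1 start and before the Lyl1 start are shown because these 2 genes ran in opposite directions between GMP and MEP. The sequences are of RefSeq starts on GRCm38.p6, 5′ to 3′ on the strand of the gene. Capitals mark matches, on either strand, to one of 4 motifs. The Gata motif was searched as AGATAA. For Runx the letters searched were TGTGGT. The motif of the Ets factors was taken as CCGGAA. An E-box was counted where the window read CAGCTG.
Tal1, chr4:115056176-115056425, plus strand: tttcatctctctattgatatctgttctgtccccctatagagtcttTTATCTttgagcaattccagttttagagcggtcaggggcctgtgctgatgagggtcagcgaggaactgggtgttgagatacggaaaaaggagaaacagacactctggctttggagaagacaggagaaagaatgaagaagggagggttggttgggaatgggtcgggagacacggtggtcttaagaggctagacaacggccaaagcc
Lyl1, chr8:84701207-84701456, plus strand: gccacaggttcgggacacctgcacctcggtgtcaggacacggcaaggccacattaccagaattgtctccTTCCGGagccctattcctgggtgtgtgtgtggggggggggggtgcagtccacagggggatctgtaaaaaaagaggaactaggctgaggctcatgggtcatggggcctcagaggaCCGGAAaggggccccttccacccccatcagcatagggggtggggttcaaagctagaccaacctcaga
The Tal1 window held 1 match to the Gata motif, 205 bases before the start, and the Lyl1 window held 2 matches to the Ets motif, at 181 and 67 bases before the start. The Gata motif was in 3 of the 15 windows of 8 members, of Tal1, Erg and Ldb1, and in 10% of all 32851 windows. The Runx motif was in 2, of Runx2 and Runx3, against 14%, the Ets motif in 2, of Lyl1 and Runx1, against 12%, and the E-box in none, against 13%. These matches are letters in a window and were not tested as sites.

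Lmo2 is a LIM-only protein with no DNA contact of its own that holds Scl, E protein and Gata factor together. Its probe lies across an intron in the genome (chromosome 2 of mm9, 103816341 to 103821054, plus strand). It read 11.71 and 11.05 in LT-HSC, 11.29, 11.49 and 11.07 in ST-HSC, 11.87, 12.35 and 11.60 in MPP, 11.24, 11.23 and 10.79 in CMP, 10.11, 10.57 and 10.23 in GMP, and 11.43, 11.24 and 10.67 in MEP. GMP had the lowest mean and MPP the highest. The GMP arrays were below the MEP arrays with no overlap, but the difference of -0.81 ± 0.26 (SE) on the log2 scale, with an adjusted p of 0.0514, did not pass. The adjusted p was 0.0134 with run in the fit, at the same difference, and it was under 0.05 with the 75th percentile (0.0226), the dim probes left out (0.0427), slide as a random block (0.0205), the replicate block (0.00749) or LT-HSC left out (0.0393). For HSC subsets minus myeloid populations it was 0.70 ± 0.16 (SE) on the log2 scale, with an adjusted p of 0.00308. With run in the fit this was 0.65 ± 0.24 (SE) with an adjusted p of 0.105, and within run 2 it was 0.77.

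Ldb1, the LIM-domain binding protein that self-associates and brings enhancers to promoters, had the same order as Tal1 among the myeloid populations: MEP, CMP and GMP, by their means. Its brighter probe (chromosome 19 of mm9, 46107487 to 46107546, minus strand) read 9.93 and 10.02 in LT-HSC, 9.85, 10.10 and 10.52 in ST-HSC, 9.79, 10.52 and 11.12 in MPP, 11.65, 11.63 and 11.04 in CMP, 10.33, 10.68 and 10.36 in GMP, and 12.19, 12.08 and 11.43 in MEP. MEP and CMP had the highest means and LT-HSC the lowest. The GMP minus MEP difference was -1.44 ± 0.32 (SE) on the log2 scale, with an adjusted p of 0.00522. The second probe, 1709 bases into the transcript against 1832, gave -1.57 (adjusted p 0.00759), and the probes had r = 0.98 over the 17 arrays. HSC subsets minus myeloid populations was -1.06 ± 0.19 (SE) on the log2 scale, with an adjusted p of 0.000575. This difference moved with the run. With run in the fit it was -0.15 ± 0.23 (SE) (adjusted p 0.755), and within run 2 it was -0.12. The run 2 array was the highest of 3 in ST-HSC and MPP and the lowest of 3 in CMP and MEP.

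Erg is an Ets factor needed for the upkeep of adult stem cells. Its brighter probe (chromosome 16 of mm9, 95581243 to 95581302, minus strand) read 12.19 and 11.86 in LT-HSC, 12.46, 13.01 and 12.40 in ST-HSC, 12.77, 13.17 and 12.64 in MPP, 11.69, 11.73 and 11.81 in CMP, 10.77, 10.997 and 10.72 in GMP, and 7.93, 8.42 and 8.26 in MEP. The order of the means was MPP, ST-HSC, LT-HSC, CMP, GMP and MEP, and every array of the HSC subsets was above every myeloid array. This was the only one of the 19 probes whose arrays did not overlap between these sets, which held for 8.05% of all probes. The HSC subsets minus the myeloid populations gave 2.24 ± 0.12 (SE) on the log2 scale, with an adjusted p of 3.48e-08, 4.73-fold. It was 1.98 ± 0.22 (SE) with run in the fit (adjusted p 0.000308) and 2.26 within run 2. GMP minus MEP was 2.63 ± 0.20 (SE) on the log2 scale, with an adjusted p of 8.66e-07. Within the HSC subsets, LT-HSC minus MPP was -0.83 ± 0.22 (SE, adjusted p 0.0426). The second Erg probe (chromosome 16 of mm9, 95581956 to 95582015, minus strand) gave -0.48 for that pair (adjusted p 0.376). It was not well above background on any MEP array, and its GMP level was at least 1.66-fold higher, with measured means of 5.44 and 2.19 and an adjusted p of 1.54e-06. This bound takes, on each MEP array, the dimmest signal that was well above background, or the probe's own where that was higher. It is for the main processing, where the log2 difference was 3.25, against 0.96 in the authors' table and 0.52 with normexp background correction.

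Fli1, the Ets factor of stem cells and megakaryocytes, had its brighter probe at chromosome 9 of mm9, 32229857 to 32229916, minus strand. It read 12.11 and 12.07 in LT-HSC, 12.51, 12.39 and 12.53 in ST-HSC, 12.10, 12.14 and 11.94 in MPP, 10.96, 11.13 and 12.22 in CMP, 11.59, 11.28 and 11.90 in GMP, and 8.22, 8.87 and 8.99 in MEP. The 3 MEP arrays were below every other array. The GMP minus MEP difference was 2.90 ± 0.30 (SE) on the log2 scale, with an adjusted p of 9.82e-06, 7.45-fold, and the second probe gave 3.18 ± 0.23 (SE). One CMP array, the unnumbered one at 12.22, stood with the HSC subsets while the other two were at 10.96 and 11.13. Against the myeloid populations the HSC subsets stood at 1.64 ± 0.18 (SE) on the log2 scale, with an adjusted p of 1.19e-05, and 1.14 ± 0.23 (SE) (adjusted p 0.00927) with run in the fit. The second probe gave 0.71 (adjusted p 0.00101) and 0.78 ± 0.24 (SE) (adjusted p 0.054) with run in the fit, and its highest mean was in GMP, at 10.81. Megakaryocyte markers (Pf4, Gp9, Ppbp, Itga2b and Vwf) had a log2 summed intensity of 13.37 to 13.65 in LT-HSC, 14.88 to 15.07 in ST-HSC, 10.43 to 11.42 in MPP, 14.61 to 15.84 in CMP, 12.52 to 13.43 in GMP and 11.01 to 11.37 in MEP. Endothelial cells also express Erg and Fli1. The endothelial marker Cdh5 exceeded background on 1 of the 17 arrays, an MPP array, and the summed list of Cdh5, Kdr, Plvap and Flt4 ran from 9.29 to 9.61 in MEP, its highest, where Plvap, with a mean of 9.38, was the only one of the 4 well above background. Kdr ran the other way, with its lowest mean in MEP at 2.18 and means of 5.23 in ST-HSC and 5.79 in CMP, so it was lowest where Erg and Fli1 were lowest. The part of these markers in the Ets values was not tested.

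Cbfb, which binds no DNA itself and raises the affinity of all 3 Runx proteins, was read by a bright probe (chromosome 8 of mm9, 107741637 to 107741696, plus strand). Its log2 intensity was 13.23 and 13.46 in LT-HSC, 13.77, 13.80 and 13.36 in ST-HSC, 13.98, 13.88 and 13.40 in MPP, 13.23, 13.26 and 13.46 in CMP, 13.45, 13.08 and 12.93 in GMP, and 10.62, 11.003 and 11.04 in MEP. All 5 other populations had means between 13.15 and 13.75, and the MEP arrays stood apart below them. GMP minus MEP was 2.26 ± 0.20 (SE) on the log2 scale, with an adjusted p of 3.26e-06, 4.81-fold. For HSC subsets minus myeloid populations it was 1.13 ± 0.12 (SE) on the log2 scale, with an adjusted p of 1.20e-05. It was 0.73 ± 0.19 (SE) with run in the fit (adjusted p 0.0248), and 0.90 within run 2. The dimmer probe (chromosome 8 of mm9, 107739851 to 107739910, plus strand) gave 1.58 for GMP minus MEP and 0.67 for HSC subsets minus myeloid populations, and the second of these was lost with run in the fit (adjusted p 0.538).

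Runx2, best known as the master factor of bone, had the widest range of the members. Its brightest probe (chromosome 17 of mm9, 44741014 to 44741073, minus strand, on 10 spots) read 10.81 and 11.31 in LT-HSC, 11.32, 11.29 and 11.21 in ST-HSC, 12.39, 12.07 and 11.94 in MPP, 10.75, 10.66 and 11.54 in CMP, 9.75, 9.06 and 9.74 in GMP, and 6.22, 6.68 and 7.82 in MEP. The means fell from MPP at 12.13 ± 0.23 (SD, n = 3) to MEP at 6.90 ± 0.83 (SD, n = 3), and the last 2 steps, CMP to GMP and GMP to MEP, each passed. HSC subsets minus myeloid populations was 2.35 ± 0.22 (SE) on the log2 scale, with an adjusted p of 3.55e-06, 5.11-fold. It was 1.64 ± 0.29 (SE) (adjusted p 0.00446) with run in the fit and 1.88 within run 2. The GMP minus MEP difference was 2.61 ± 0.36 (SE) on the log2 scale, with an adjusted p of 0.000146, and 2.96 and 1.92 within runs 1 and 2. The unnumbered MEP array, of run 2, was the highest of the MEP arrays. Of the osteoblast markers Bglap1, Ibsp, Col1a1 and Sp7, Bglap1 and Col1a1 were well above background on every ST-HSC, MPP and CMP array, and Ibsp on no array. Their log2 summed intensity ran from 5.66 to 5.86 in LT-HSC, 6.27 to 9.45 in ST-HSC, 6.72 to 8.62 in MPP, 6.14 to 9.35 in CMP, 5.37 to 6.204 in GMP and 5.02 to 7.86 in MEP. Plasmacytoid dendritic cells, which are rich in Runx2, have the markers Siglech, Ccr9 and Pacsin1, whose log2 summed intensity ran from 9.12 to 9.77 in MPP, 8.61 to 8.63 in LT-HSC, 6.07 to 6.57 in ST-HSC, 6.68 to 7.30 in CMP, 4.43 to 5.55 in GMP and 6.62 to 7.21 in MEP. Siglech was well above background on all 3 CMP arrays, with a mean of 4.39, on 1 MEP array and on none of the others. The part of these markers in the Runx2 values was not tested.

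There were 4 probes named Runx2 on the array, and they did not move together. The second, chromosome 17 of mm9, 44741152 to 44741211, minus strand, lies in the same stretch as the first and had r = 0.99 with it over the 17 arrays. The third, near the end of the coding sequence, had r = 0.19 with the first. It read 3.72 and 4.12 in LT-HSC, 4.69, 4.19 and 5.09 in ST-HSC, 4.75, 5.24 and 5.94 in MPP, 7.92, 7.68 and 6.02 in CMP, 6.73, 6.61 and 5.38 in GMP, and 3.94, 4.90 and 3.65 in MEP. It was highest in CMP and was not well above background on either LT-HSC array or any MEP array. The HSC subsets minus the myeloid populations gave -1.24 ± 0.32 (SE) on the log2 scale, with an adjusted p of 0.00705, against the direction of the first probe, but turned to 0.23 ± 0.33 (SE) (adjusted p 0.731) with run in the fit and was 0.50 within run 2. The call was lost too with the 75th percentile (adjusted p 0.273), slide as a random block (0.1), the replicate block (0.159) and LT-HSC left out (0.0639). In GMP it was at least 2.71-fold higher than in MEP (measured means 6.24 and 4.17, adjusted p 0.0142). The bound is for the main processing, where the log2 difference was 2.07, against 1.09 in the authors' table and 0.61 with normexp background correction. The fourth covers the start codon of the form made from the distal promoter and exceeded background on 4 of 17 arrays, the numbered ones of ST-HSC and MPP, with no difference that passed (F-test adjusted p 0.988).

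**Figure D2:**
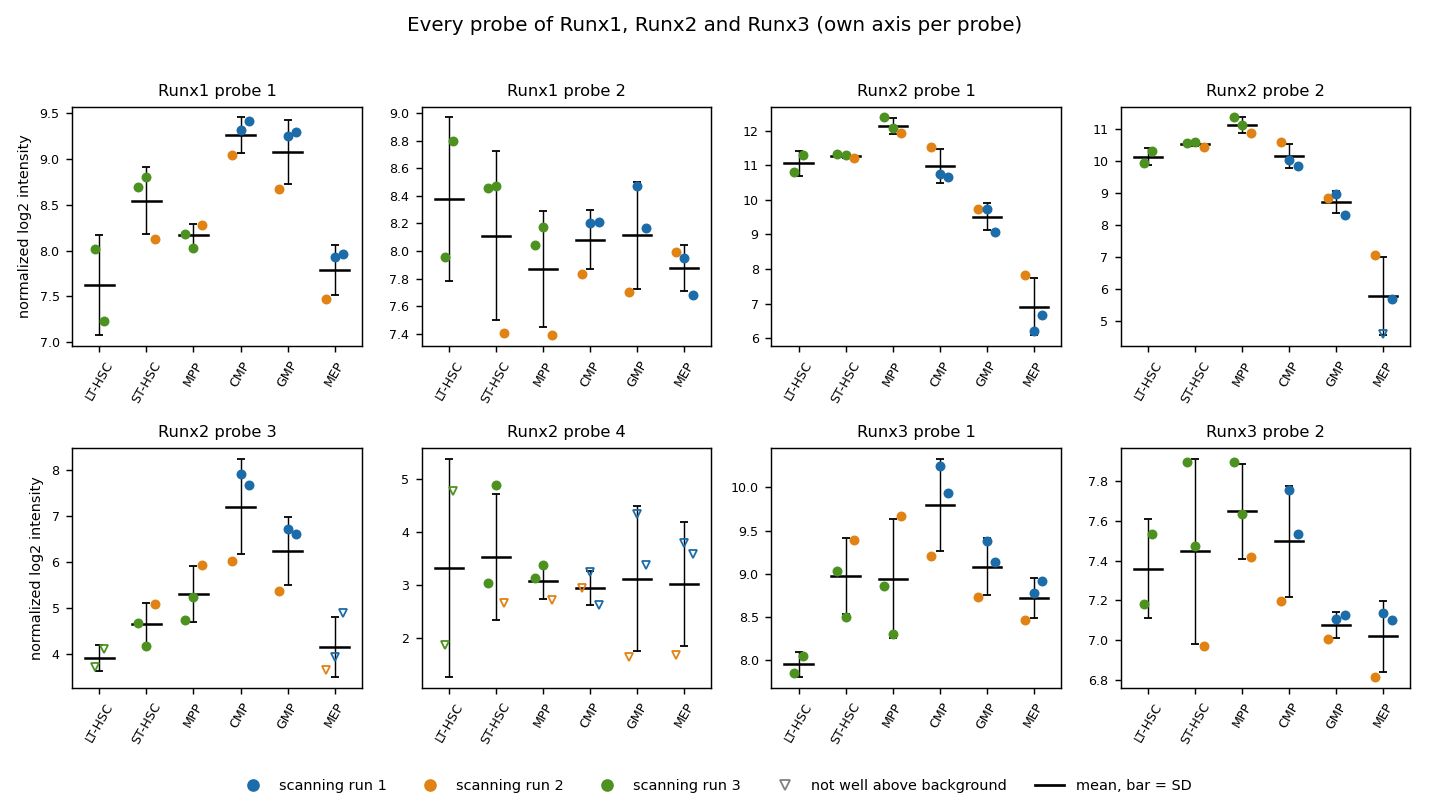
Every probe of Runx1, Runx2 and Runx3 by population, as normalized log2 intensity on each array with the mean and 1 SD. Open triangles are arrays on which the probe was not well above background. Runx2 probes 1 and 2 fell from MPP to MEP, Runx2 probe 3 peaked in CMP, and Runx1 probe 2, Runx2 probe 4 and Runx3 probe 2 did not pass the F-test. Each panel has its own axis.

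The sequences of 3 probes that departed from the brightest probe of their gene are given because the probes of these genes gave different patterns. They lie in coding sequence, are written 5′ to 3′ on the mRNA strand and stand on mm9. The capitals mark the start codon, and the 12 bases of that probe before it are left out.
Runx2 probe 3, chr17:44744925-44744984, minus strand: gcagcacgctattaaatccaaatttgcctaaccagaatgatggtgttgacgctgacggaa
Runx2 probe 4, chr17:44951128-44951187, minus strand: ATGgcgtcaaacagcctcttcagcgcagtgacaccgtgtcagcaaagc
Runx1 probe 2, chr16:92614003-92644455, minus strand, across an exon junction: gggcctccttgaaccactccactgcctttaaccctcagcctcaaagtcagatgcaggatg
Runx2 probe 4 starts at base 192 of its transcript, and Runx2 probes 1 and 2 at bases 6394 and 6256 of theirs, 3′ of probe 3 in the genome. The 250 bases before the RefSeq start of Runx2 and before the first start of Runx3, each with matches to the Runx motif (capitals as above), are these.
Runx2, chr17:44814628-44814877, minus strand: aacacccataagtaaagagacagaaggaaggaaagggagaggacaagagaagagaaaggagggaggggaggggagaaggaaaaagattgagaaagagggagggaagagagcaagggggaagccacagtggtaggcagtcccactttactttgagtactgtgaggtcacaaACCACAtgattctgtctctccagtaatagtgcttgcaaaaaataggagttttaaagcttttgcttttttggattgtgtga
Runx3, chr4:135120395-135120644, plus strand: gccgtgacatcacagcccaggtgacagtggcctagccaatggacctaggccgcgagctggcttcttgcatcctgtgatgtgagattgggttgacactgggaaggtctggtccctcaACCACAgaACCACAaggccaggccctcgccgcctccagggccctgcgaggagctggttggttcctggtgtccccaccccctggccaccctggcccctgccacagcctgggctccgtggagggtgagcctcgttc
The Runx2 window held 1 match, 80 bases before the start, and the Runx3 window held 2, at 134 and 126 bases before it.

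Runx1, the member most tied to the birth of stem cells and to platelet and myeloid genes, had its highest mean in CMP. Its brighter probe (chromosome 16 of mm9, 92604413 to 92604472, minus strand), which the array files list for 4 RefSeq transcripts, read 8.01 and 7.23 in LT-HSC, 8.70, 8.80 and 8.13 in ST-HSC, 8.18, 8.03 and 8.28 in MPP, 9.32, 9.42 and 9.04 in CMP, 9.25, 9.30 and 8.67 in GMP, and 7.93, 7.96 and 7.47 in MEP. CMP and GMP were highest, and LT-HSC and MEP lowest. GMP minus MEP was 1.29 ± 0.25 (SE) on the log2 scale, with an adjusted p of 0.00247, 2.44-fold, and 1.33 and 1.20 within runs 1 and 2. LT-HSC minus CMP was -1.63 ± 0.28 (SE, adjusted p 0.00207), between arrays with no scanning run in common. Against the myeloid populations the HSC subsets stood at -0.60 ± 0.15 (SE) on the log2 scale, with an adjusted p of 0.00685, with -0.46 ± 0.24 (SE) (adjusted p 0.245) when run was in the fit and -0.19 within run 2. The call was lost as well without LT-HSC (adjusted p 0.0736) and with the mean of both probes (0.175). The second probe, listed for 2 of those transcripts, had r = 0.11 with the first and an F-test adjusted p of 0.802. It read 7.95 and 8.79 in LT-HSC, 8.46, 8.47 and 7.41 in ST-HSC, 8.04, 8.18 and 7.39 in MPP, 8.20, 8.21 and 7.83 in CMP, 8.47, 8.16 and 7.71 in GMP, and 7.95, 7.69 and 7.99 in MEP, so its populations overlapped throughout.

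Runx3, a factor of lymphocytes and the nervous system, had its brighter probe at chromosome 4 of mm9, 134732605 to 134732664, plus strand. It read 7.85 and 8.05 in LT-HSC, 9.03, 8.51 and 9.39 in ST-HSC, 8.86, 8.30 and 9.67 in MPP, 10.25, 9.94 and 9.21 in CMP, 9.38, 9.14 and 8.73 in GMP, and 8.78, 8.92 and 8.47 in MEP. CMP had the highest mean and LT-HSC the lowest, with LT-HSC minus CMP at -1.85 ± 0.40 (SE, adjusted p 0.00621), a pair that shares no scanning run, so run and population cannot be told apart in it. The GMP minus MEP difference was 0.36 ± 0.35 (SE) on the log2 scale, with an adjusted p of 0.64. For HSC subsets minus myeloid populations it was -0.58 ± 0.21 (SE) on the log2 scale, with an adjusted p of 0.0443, and turned to 0.49 ± 0.24 (SE) (adjusted p 0.217) with run in the fit and to 0.73 within run 2. In ST-HSC and MPP the run 2 array was the highest and in CMP, GMP and MEP the lowest, so the sign of this difference rests on the run term. With the 75th percentile the difference was about as large, -0.56, with an adjusted p of 0.0509. It was smaller and not called with slide as a random block (-0.28, adjusted p 0.444), the replicate block (-0.21, 0.489), LT-HSC left out (-0.24, 0.447) and the mean of both probes (-0.15, 0.426). The second probe did not differ across the populations by the F-test (adjusted p 0.182) and had r = 0.17 with the first.

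Of the 14 probes called between GMP and MEP, all 14 had the same sign within run 1 and within run 2, and 13 were called under each of 26 alternative fits, with Runx2 probe 3 the exception. The arrays of GMP and MEP did not overlap for 15 of the 19 probes, as for 33.9% of all probes. Of the 16 probes called between HSC subsets and myeloid populations, 13 had the same sign within run 2, on 2 and 3 arrays. The other 3 were Tal1, Runx2 probe 3 and Runx3 probe 1. The 6 probes called under each of the same alternatives were Erg probes 1 and 2, Runx2 probes 1 and 2, Cbfb probe 1 and Fli1 probe 1, all higher in the HSC subsets.

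**Figure D3:**
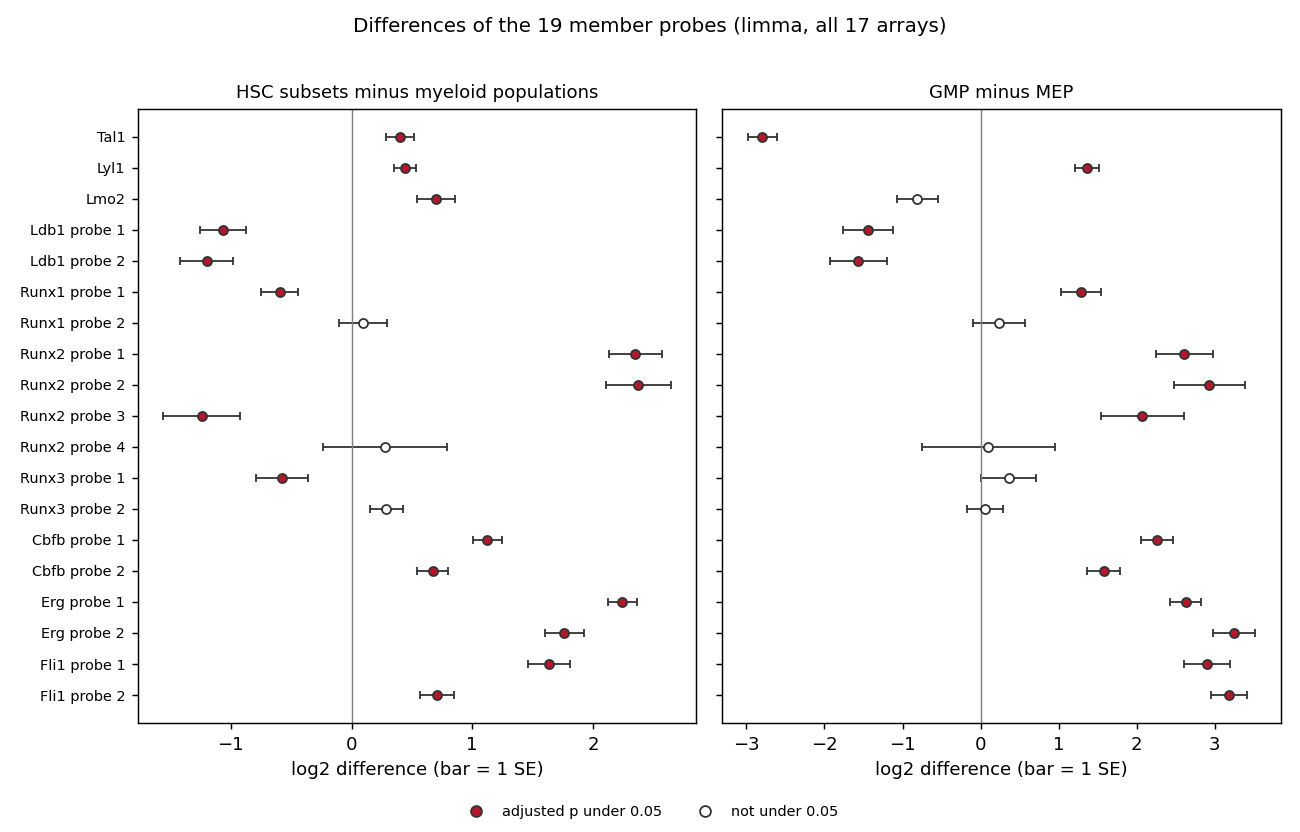
Log2 difference of each of the 19 member probes between HSC subsets and myeloid populations (left) and between GMP and MEP (right), with 1 SE, from the fit to all 17 arrays. Filled points passed an adjusted p of 0.05. Ets, Cbfb and Runx2 probes 1 and 2 lie to the right of 0 in both panels, and Tal1 and Ldb1 lie to the left for GMP minus MEP.

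**Figure D4:**
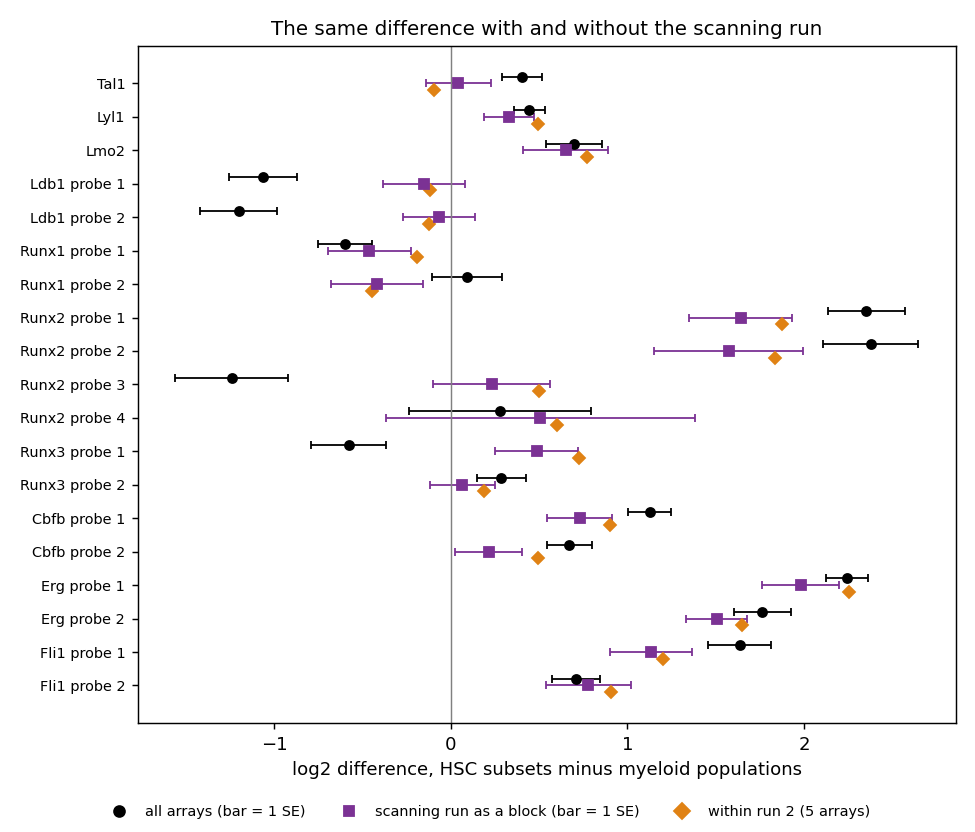
Log2 difference between HSC subsets and myeloid populations for each member probe from all arrays (circles, 1 SE), with scanning run in the fit (squares, 1 SE), and within run 2 alone (diamonds, 2 arrays of HSC subsets and 3 of myeloid populations, no error). Erg probe 1 stood at 2.24, 1.98 and 2.26, while Ldb1 probe 1 moved from -1.06 to -0.15 and Runx3 probe 1 changed sign.

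By the brightest probes, the order of the 6 population means was the same for Erg, Runx2 and Cbfb: MPP, ST-HSC, LT-HSC, CMP, GMP, MEP. It was ST-HSC, LT-HSC, MPP, GMP, CMP, MEP for Fli1 and MPP, GMP, ST-HSC, CMP, LT-HSC, MEP for Lyl1, so 5 genes ended with MEP. Tal1 ran MEP, LT-HSC, ST-HSC, CMP, MPP, GMP and Ldb1 MEP, CMP, MPP, GMP, ST-HSC, LT-HSC. By these probes Runx1 and Runx3 shared CMP, GMP, ST-HSC, MPP, MEP, LT-HSC, and Lmo2 ran MPP, LT-HSC, ST-HSC, MEP, CMP, GMP. The 9 other probes gave other orders, and 5 of the 9 ended with MEP. Those 5 ran ST-HSC, MPP, CMP, LT-HSC, GMP, MEP for Erg probe 2, MPP, CMP, ST-HSC, GMP, LT-HSC, MEP for Cbfb probe 2, MPP, ST-HSC, CMP, LT-HSC, GMP, MEP for Runx2 probe 2, GMP, ST-HSC, CMP, MPP, LT-HSC, MEP for Fli1 probe 2, and MPP, CMP, ST-HSC, LT-HSC, GMP, MEP for Runx3 probe 2. Runx1 probe 2 ran LT-HSC, GMP, ST-HSC, CMP, MEP, MPP and Ldb1 probe 2 MEP, CMP, GMP, MPP, LT-HSC, ST-HSC. Runx2 probe 3 ran CMP, GMP, MPP, ST-HSC, MEP, LT-HSC and Runx2 probe 4 ST-HSC, LT-HSC, GMP, MPP, MEP, CMP. Most neighbours in these orders did not differ beyond their spread. The neighbours were set by the order of the same means, so a call only describes that order. Depending on the pair of populations, 2.02% to 32.9% of all probes were called. Of the 50 neighbouring pairs 9 passed, by the brightest probes: MEP over LT-HSC and MPP over GMP for Tal1, LT-HSC over MEP for Lyl1, CMP over GMP and GMP over MEP for Runx2 and for Erg, GMP over MEP for Cbfb, and CMP over MEP for Fli1. No neighbours passed for Lmo2, Ldb1, Runx1 or Runx3.

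Over all 15 pairs of populations, 68 of 150 comparisons of the 10 genes passed. GMP and MEP differed in 8 of the 10 genes, against 17.4% of all probes, CMP and MEP in 7 against 16.7%, and CMP and GMP in 3 (Tal1, Runx2 and Erg, all higher in CMP) against 4.77%. MEP differed from MPP in 8 genes against 32.9%, from ST-HSC in 8 against 30%, and from LT-HSC in 7 against 30%. GMP differed from LT-HSC in 6 against 28%, from MPP in 5 against 22.5%, and from ST-HSC in 4 against 19.7%. CMP differed from LT-HSC in 3 against 23.4%, from ST-HSC in 3 against 10.3%, and from MPP in 2 against 12.1%. Within the HSC subsets, MPP differed from LT-HSC in 3 (Tal1, Lyl1 and Erg) against 7.26% and from ST-HSC in 1 (Tal1) against 2.02%, and none passed between LT-HSC and ST-HSC, against 3.34%. The genes are read here by their brightest probes, while the shares count all probes, dim ones too, so the 2 are not alike. These pairs share populations and are not separate evidence. LT-HSC shared no scanning run with CMP, GMP or MEP, and ST-HSC and MPP shared with them only run 2, so in the pairs with LT-HSC run and population cannot be told apart. The 3 genes called between LT-HSC and CMP were Ldb1, Runx1 and Runx3, whose calls in HSC subsets against myeloid populations were lost with run in the fit.

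Over the 17 arrays Erg, Runx2, Cbfb, Fli1 and Lyl1 had Pearson correlations of 0.86 to 0.96 with each other. Over the 14 arrays without MEP the correlation was 0.87 between Erg and Runx2, 0.77 between Erg and Cbfb, 0.57 between Erg and Fli1, and 0.23 between Erg and Lyl1. Tal1 had -0.28 with Erg over 17 arrays and 0.69 without MEP, and Lmo2 had 0.41 and 0.90 with Erg in the same way. Runx1 and Runx3 had 0.69 over both sets of arrays. All these values share the arrays, their runs and their normalization, and are given with no test.

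The genes whose values ran most like each member over the 17 arrays, among 18642 probes well above background on at least 15 arrays, are given as a description. For Tal1 they were Hemgn (r = 0.98) and Gfi1b (r = 0.97), for Erg Eltd1 (r = 0.99) and Parc (r = 0.99), for Runx2 Ifi203 (r = 0.99) and Sept6 (r = 0.99), for Cbfb Elk3 (r = 0.99) and Il16 (r = 0.99), and for Fli1 BC022623 (r = 0.99) and Lcp2 (r = 0.99). For Lyl1 they were Tm6sf1 (r = 0.99) and Tep1 (r = 0.98) and for Ldb1 Brf1 (r = 0.96) and Hdac7 (r = 0.95). The likeness was lower for Lmo2, with Tgtp (r = 0.93) and ENSMUST00000058187 (r = 0.92), for Runx1, with ENSMUST00000107456 (r = 0.92) and Galnt6 (r = 0.91), and for Runx3, with AV296505 (r = 0.92) and Mtl5 (r = 0.91).

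Partners of the complex were called in both directions between GMP and MEP. Of 14 genes (E proteins, Gata factors, Ssbp proteins that steady Ldb1, relatives and corepressors), 4 were higher and 4 lower in GMP, where 9.56% and 7.81% of all probes were called. The largest were Lmo1, a relative of Lmo2, at 4.09 ± 0.27 (SE) on the log2 scale, and Tcf3. Counted as an E protein gene by its symbol alone, Tcf3 was at least 2.22-fold higher in GMP. Its value is a bound, since it was not well above background on any MEP array. On the other side Gfi1b, a repressor of the erythroid and megakaryocyte lines, was at -4.88 ± 0.22 (SE) and Gata1, the erythroid Gata factor, at -4.03 ± 0.40 (SE). Their median was -0.08. Against the myeloid populations, 8 of the 14 were higher in the HSC subsets and 2 lower, where 18.2% and 23.1% of all probes were called, with a median of 0.46. Tcf3 was also called higher, and no size is given for it because 5 of the 9 myeloid arrays, and no MEP array, had it well above background. Gata1 was at -2.69 ± 0.24 (SE), Ssbp4 at -0.40 ± 0.09 (SE), and Ldb2, not well above background in any myeloid array, at least 1.2-fold higher. With the run term, 2 partners were called higher and 1 lower, against 6.86% and 7.64% of all probes.

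Of 12 Runx partners and corepressors, 1 passed between GMP and MEP, the kinase Hipk2 at 1.06 ± 0.27 (SE), with a median of -0.05 over the list, where 17.4% of all probes were called. That call was lost with the 75th percentile, and with the run term 2 were called higher and 1 lower. No share of all probes was counted for GMP against MEP with that term. In the HSC subsets 6 were higher than in the myeloid populations and none lower, where 18.2% and 23.1% of all probes were called, with a median of 0.23. They were led by the corepressor Tle2 at 2.57 ± 0.12 (SE) and by Runx1t1, known from its fusion with RUNX1 in leukemia, at least 1.34-fold higher. With run in the fit 3 were higher, against 6.86% of all probes, and with the replicate block 1 was lower.

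All 6 erythroid targets were lower in GMP than in MEP, against 7.81% of all probes, with a median of -4.80. One of them, Epb4.2, had no GMP array well above background, so its difference is a bound, at least 6.64-fold. Klf1, the erythroid Krüppel-like factor, was at -6.25 ± 0.54 (SE) and the globin gene Hbb-b1 at -5.05 ± 0.55 (SE). All 6 myeloid targets of Runx1 were higher in GMP, against 9.56% of all probes, with a median of 4.25, among them Csf1r, the M-CSF receptor, at 5.20 ± 0.49 (SE) and Cebpa, a granulocyte factor, at 4.76 ± 0.45 (SE). Of 7 stem cell and megakaryocyte targets, 4 were higher in GMP and none lower, where 9.56% and 7.81% of all probes were called. Their median was 1.01, and 1 was lower with the run term, with slide as a random block or with the replicate block. The 4 were led by the platelet genes Pf4 at 3.06 ± 0.43 (SE) and Itga2b at 3.04 ± 0.53 (SE). Several of these targets are also the markers by which GMP and MEP were checked here.

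Against the myeloid populations, 4 of the 7 stem cell and megakaryocyte targets were higher in the HSC subsets and 1 lower, with a median of 0.64, where 18.2% and 23.1% of all probes were called. The homeobox gene Meis1, not well above background on the 3 MEP arrays, was at 2.77 ± 0.14 (SE) as measured, the homeobox gene Hhex at 1.22 ± 0.14 (SE), and Itga2b at -1.97 ± 0.32 (SE). Of the erythroid targets 2 were higher (Hbb-b1 at 1.94 ± 0.33 (SE) and Hba-a1 at 1.405 ± 0.38 (SE), both globins) and 1 lower (Klf1 at -1.95 ± 0.32 (SE)), with a median of 0.59. Of the myeloid targets 2 were lower (Csf1r at -1.11 ± 0.29 (SE) and Cebpa at -1.02 ± 0.27 (SE)), with a median of -0.68. These counts stand beside 18.2% of all probes called higher and 23.1% lower, and 2 of 6 is near the latter. No myeloid target passed with slide as a random block or with the replicate block, and 1 did without LT-HSC. Of the erythroid targets 2 were lower with the replicate block, and without LT-HSC 1 was higher and 2 lower. With run in the fit the stem cell and megakaryocyte count was 2 higher and none lower, and none of the erythroid or myeloid targets passed, where 6.86% of all probes were higher and 7.64% lower. The summed mature erythroid markers ran from 14.12 to 14.54 in LT-HSC, 13.32 to 14.43 in ST-HSC, 12.84 to 13.96 in MPP, 10.71 to 12.17 in CMP, 8.91 to 10.74 in GMP and 14.14 to 15.83 in MEP. The summed neutrophil markers (Ltf, Camp, Ngp and S100a8) ran from 16.32 to 17.50 in LT-HSC, 15.57 to 17.02 in ST-HSC, 13.59 to 15.58 in MPP, 12.59 to 14.14 in CMP, 13.36 to 15.21 in GMP and 13.82 to 15.29 in MEP. Their part in these lists was not tested.

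**Figure D5:**
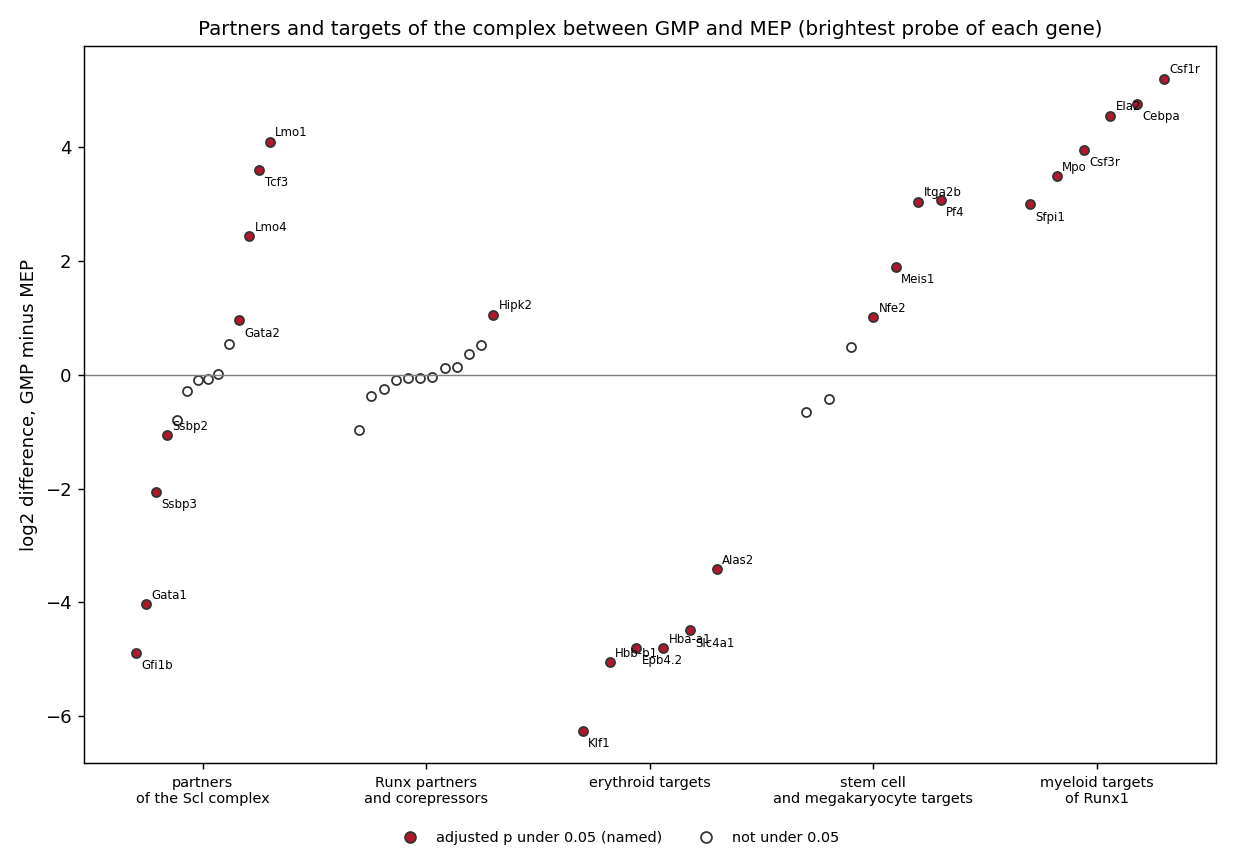
Log2 difference between GMP and MEP for the brightest probe of each gene in 5 lists of partners and targets, with filled and named points where the adjusted p was under 0.05. All 6 erythroid targets lie below 0, all 6 myeloid targets above 0, and the partners of the Scl complex on both sides.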

How the data were processed

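RNA of 6 sorted populations was hybridized to 17 one-color Agilent arrays. The deposited scanner files hold intensities that Agilent Feature Extraction (9.5.3.1 or 10.2.1.3, per the file headers) had corrected for background. The authors' series table of log2 values, quantile normalized by them, was used only as an alternative. Log2 of the processed signal was quantile normalized over all spots, outlier spots were set to missing (161 probe values), 1639 control spots were dropped and spots of a probe were averaged, giving 41174 probes. limma 3.58.1 (R 4.3.3) fitted a mean per population, with Benjamini-Hochberg adjustment over all probes at 0.05. The script was tested on simulated data.

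The members and gene lists were chosen with earlier results of these data known. Some items of these lists are not reported here, and the list counts leave them out. The brightest probe stands for a gene, also in the list counts, while the shares of all probes include dim probes. From each list the text names the 2 genes with the largest change each way among those called. Likeness was searched over probes well above background on at least 15 arrays. Gene names and mm9 positions are those of the array files, and promoter windows are from the RefSeq table. A group with no array well above background has only a bound, which is for the main processing. Alternatives were the 75th percentile, normexp with an offset of 50, the authors' table, outlier spots kept, a filter on dim probes, a block for scanning run, slide or replicate number, averaging the probes of a gene, and leaving out LT-HSC or each array in turn. The number of arrays limits the precision. The correlation of same-numbered arrays was checked and is given with the alternatives.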

Additional observations from a re-analysis of the deposited data

How the results depend on the processing

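The F-test called 15 or 16 of the 19 probes and GMP against MEP 14 or 15 under every alternative that kept all arrays or left out LT-HSC. Leaving out 1 array gave 15 to 16 for the F-test, 15 to 17 for HSC subsets against myeloid populations, 13 to 15 for GMP against MEP, and 6 to 9 neighbouring pairs, of 9. The scanning run moved the count for HSC subsets against myeloid populations to 6 of 19, with none lower. The median difference of all probes was -0.09 with run in the fit and -0.02 without it. The count for HSC subsets against myeloid populations was 12 with the 75th percentile or without LT-HSC and 13 with slide as a random block. Of the 5 probes lower in the HSC subsets, the count fell to 3 with the 75th percentile, slide or replicate block and to 2 without LT-HSC. The call of Runx3 probe 1 was lost in 12 of the 17 fits without 1 array, though its difference stayed between -0.70 and -0.47, and that of Runx2 probe 3 between GMP and MEP without either numbered GMP array, without MEP replicate 1 or without the unnumbered MEP array. The list counts under the alternatives were chosen after seeing the data. A share of all probes was counted beside them only for HSC subsets against myeloid populations with the run term. Cause was not tested for any of these changes.

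For HSC subsets minus myeloid populations, signs turned as follows. With scanning run in the fit the value was -0.42 for Runx1 probe 2, 0.23 for Runx2 probe 3 and 0.49 for Runx3 probe 1. Within run 2 it was -0.0941 for Tal1, -0.45 for Runx1 probe 2, 0.50 for Runx2 probe 3 and 0.73 for Runx3 probe 1. Runx1 probe 2 was at -0.0512 with slide as a block, at -0.0343 without LT-HSC, and at -0.0464 to 0.23 without 1 array. Runx2 probe 4 was at -0.0703 in the authors' table and at -0.21 to 0.77 without 1 array. For GMP minus MEP, Runx2 probe 4 was at -0.32 with the 75th percentile, -0.0104 with normexp, -0.0529 in the authors' table and -0.57 to 0.84 without 1 array, and Runx3 probe 2 at -0.0433 to 0.12 without 1 array. Within run 2 it was -0.29 for Runx1 probe 2 and -0.0406 for Runx2 probe 4, and within run 1 it was -0.0063 for Runx3 probe 2. None of these probes was called in a tested fit that turned its sign, and the values within a run have no test.

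Replicate numbers do not pair the samples by the labels. Of 14 pairs of arrays with the same number, 8 had deviations correlated above 0.1, with a range of -0.06 to 0.52. All 8 shared a slide, and the 6 pairs on different slides had 0.0056 or less. With the replicate block 16 probes passed the F-test, 14 differed between HSC subsets and myeloid populations, 15 between GMP and MEP, and 10 neighbouring pairs passed. At the study's F-test threshold 3 probes passed with the replicate block, against 8 without it.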
